A study of Mus musculus with 12 samples.

Results

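The genes described here are 40 that encode the glucose and lactate transporters, the enzymes of glycolysis with their side regulators, HIF-1α with its prolyl hydroxylases, and further targets of the hypoxia response. They were picked by gene symbol from a table of 47643 mouse genes. All 40 were in the table, and all 40 were among the 13082 genes that passed the filter on low values, at least 1 FPKM (sequenced fragments corrected for transcript length and for the size of the library) in at least 3 libraries.

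The 12 libraries fell into 4 groups of 3, all from spleen cells of C57BL/6 mice that the labels call naive CD4+ T cells. The first group was Tnfr2-/- (no TNF receptor 2, gene Tnfrsf1b) and received 20 ng/ml TNF with 2 ng/ml TGF-β. Wild-type (WT) cells received the same TNF+TGF-β, or 20 ng/ml IL-6 with 2 ng/ml TGF-β, or no added cytokine (Th0). All wells held 500000 cells on plates coated with anti-CD3 and anti-CD28 at 2 μg/ml each, for 3 days. The labels do not say how the Tnfr2-/- mice were made, nor whether the triplicates of a group came from separate mice or cultures, so the p-values describe variation among samples that could be purely technical.

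Glycolysis splits glucose into pyruvate in the cytosol, and lactate dehydrogenase turns pyruvate into lactate, which leaves the cell through monocarboxylate transporters. T cells that are activated through their antigen receptor take up more glucose and raise this pathway. HIF-1α is a transcription factor that prolyl hydroxylases (the Egln genes) mark for destruction when oxygen is present. When it is stable, it binds a short DNA core near genes of glycolysis and of mitochondrial turnover, and it can also be stabilised in activated T cells at normal oxygen.

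Promoters are shown for 7 of these genes, chosen for the patterns described further on: Ldha and Pgk1 of lower glycolysis, Hk2 at its entry, Bnip3, which was lowest with TNF+TGF-β in WT cells, Eno3, whose group mean was lowest with IL-6+TGF-β, Egln3, whose IL-6+TGF-β libraries were above all others, and Mxi1, which rose with both cytokine pairs. Each sequence is the 250 bases before the first RefSeq start site listed for the gene (GRCm38.p6), written 5′ to 3′ on the gene's own strand, with matches to the HIF core in capitals. The core was searched as ACGTG and as GCGTG on both strands, so a CACGTG is found on both strands and counts as 2 matches. The stretches are chr7:46845554-46845803 (plus strand), chrX:106186850-106187099 (plus), chr6:82774455-82774704 (minus), chr7:138909507-138909756 (minus), chr11:70656926-70657175 (plus), chr12:54203875-54204124 (minus) and chr19:53310256-53310505 (plus).
Ldha: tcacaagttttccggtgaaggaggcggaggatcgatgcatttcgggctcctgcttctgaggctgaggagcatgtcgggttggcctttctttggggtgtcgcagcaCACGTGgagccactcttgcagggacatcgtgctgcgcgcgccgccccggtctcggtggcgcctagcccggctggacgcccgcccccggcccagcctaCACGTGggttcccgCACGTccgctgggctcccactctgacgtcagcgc
Pgk1: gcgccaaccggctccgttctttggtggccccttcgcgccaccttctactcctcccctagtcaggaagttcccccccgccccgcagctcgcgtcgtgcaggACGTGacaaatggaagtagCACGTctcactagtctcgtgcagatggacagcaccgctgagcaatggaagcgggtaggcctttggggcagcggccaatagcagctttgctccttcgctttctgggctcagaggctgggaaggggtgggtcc
Hk2: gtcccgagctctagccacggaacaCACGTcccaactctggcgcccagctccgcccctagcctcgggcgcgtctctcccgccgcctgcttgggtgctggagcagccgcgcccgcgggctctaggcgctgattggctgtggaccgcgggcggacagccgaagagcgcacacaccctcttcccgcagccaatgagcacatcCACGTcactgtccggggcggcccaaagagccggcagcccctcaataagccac
Bnip3: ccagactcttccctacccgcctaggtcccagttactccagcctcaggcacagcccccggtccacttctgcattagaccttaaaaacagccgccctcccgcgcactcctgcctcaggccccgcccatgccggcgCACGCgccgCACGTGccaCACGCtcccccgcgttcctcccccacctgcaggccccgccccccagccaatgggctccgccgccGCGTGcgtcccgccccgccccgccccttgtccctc
Eno3: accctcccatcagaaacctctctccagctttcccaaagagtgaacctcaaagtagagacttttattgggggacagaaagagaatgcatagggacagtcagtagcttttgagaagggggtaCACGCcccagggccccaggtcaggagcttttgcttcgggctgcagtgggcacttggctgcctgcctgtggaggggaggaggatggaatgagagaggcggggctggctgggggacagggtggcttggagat
Egln3: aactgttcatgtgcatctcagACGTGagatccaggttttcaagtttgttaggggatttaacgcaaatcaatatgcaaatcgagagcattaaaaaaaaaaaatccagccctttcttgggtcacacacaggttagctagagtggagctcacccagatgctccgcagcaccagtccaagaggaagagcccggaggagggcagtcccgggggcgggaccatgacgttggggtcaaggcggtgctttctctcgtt
Mxi1: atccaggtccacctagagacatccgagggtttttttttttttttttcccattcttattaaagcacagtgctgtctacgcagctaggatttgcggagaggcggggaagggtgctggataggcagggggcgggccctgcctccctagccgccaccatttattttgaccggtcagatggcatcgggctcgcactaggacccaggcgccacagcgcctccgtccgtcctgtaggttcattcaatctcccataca

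Ldha and Bnip3 held 5 matches each in these 250 bases. Pgk1 and Hk2 held 2 each, Eno3 and Egln3 held 1 each, and Mxi1 held none. RefSeq also lists promoters 2 and 3 for Mxi1, not shown, and the window of each holds 1 match. The matches of Pgk1 began 150 and 131 bases before the start site, and the match of Egln3 began 229 bases before it. The set of RefSeq promoters used here had an entry for 38 of the 40 genes, and none was found in it for Slc2a3 and Bnip3l. Over the full window of 300 bases (250 before and 50 after the start site), the first listed promoter held a core in 30 of these 38 genes (78.9%), against 64.1% of the 9197 tested genes with a listed promoter and 43.8% of the promoters of all 27025 listed genes. At least 2 matches were found in 60.5% of the 38, against 35.2% of the 9197. A match is a description of the letters and not a binding site.

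Some facts of the libraries bear on all that follows. Tnfrsf1b stood at 4.87, 3.71 and 3.19 FPKM in the Tnfr2-/- libraries, against 74.4, 108 and 70.8 FPKM in WT libraries with TNF+TGF-β. The labelled cell type was only partly borne out by its markers. All 7 T cell markers reached at least 1 FPKM in every library, but Cd8a stood above Cd4 in 11 of 12 libraries and Cd8b1 above Cd4 in 12 of 12. B cell markers were present in all groups. Their summed level was 2017 to 4445 FPKM in Tnfr2-/- with TNF+TGF-β, 269 to 346 FPKM in WT with TNF+TGF-β, 437 to 972 FPKM in WT with IL-6+TGF-β and 809 to 1277 FPKM in WT Th0. Estimated depth ran from 16900000 to 23900000 fragments per library, at which 3 fragments on a transcript of 1 kb correspond to 0.126 to 0.178 FPKM, so that the members, whose lowest value was 0.56 FPKM, were all above that limit.

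The 18 enzymes of glycolysis gave large sums that differed between the groups. They summed to 7079, 6676 and 4820 FPKM in the Tnfr2-/- libraries with TNF+TGF-β and to 8445, 7179 and 9046 FPKM in the WT libraries with TNF+TGF-β. In WT they summed to 14800, 11701 and 11486 FPKM with IL-6+TGF-β and to 14602, 16304 and 15736 FPKM in Th0. The Tnfr2-/- libraries were thus all below the WT libraries with TNF+TGF-β, and these were all below the other WT libraries, while IL-6+TGF-β and Th0 overlapped. As a share of all FPKM, the enzymes made up 0.628% to 0.949% in Tnfr2-/-, 1.04% to 1.23% in WT with TNF+TGF-β, 1.60% to 1.79% with IL-6+TGF-β and 1.77% to 2.08% in Th0. Gapdh, Ldha, Eno1 and Pkm, 4 of the 40 genes, were among the 100 genes with the highest mean level. Of the 40 genes, 26 had their highest group mean in Th0 and 21 their lowest in Tnfr2-/-, and 14 followed the full order Th0, IL-6+TGF-β, TNF+TGF-β, Tnfr2-/- from high to low. The same counts were not made over all tested genes, so they do not show that these genes differ from the rest in this.

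**Figure D1:**
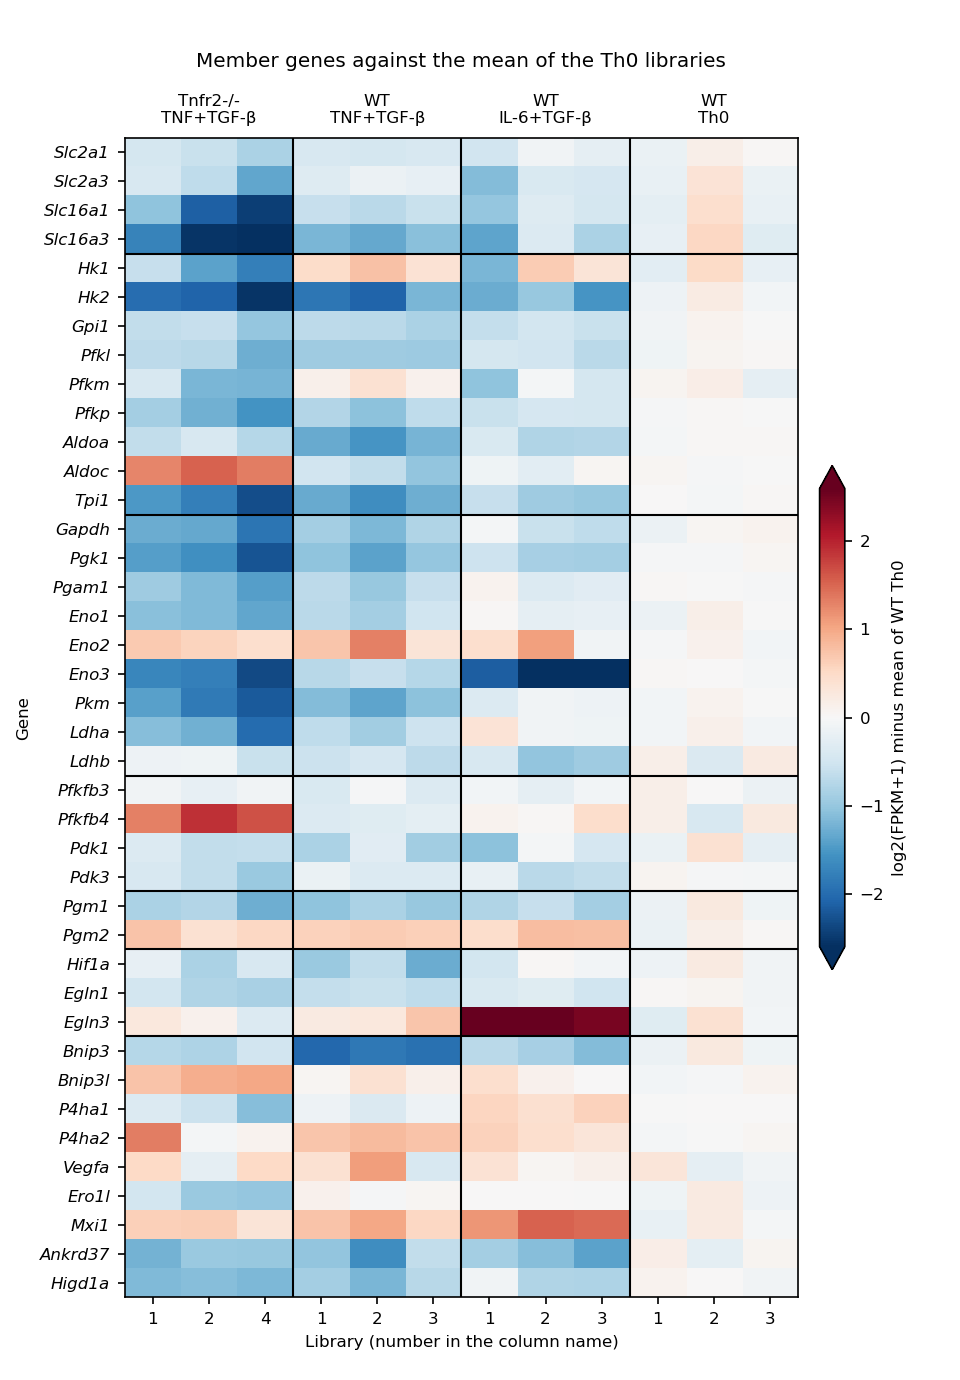
Level of the 40 genes (rows, grouped by role from transporters at the top to other hypoxia-response genes at the bottom) in the 12 libraries (columns, 3 per group), as log2(FPKM+1) minus the mean of the 3 WT Th0 libraries. Blue is below that mean and red above it. Most enzyme rows are blue in the TNF+TGF-β columns of both genotypes, Egln3 is reddest in the IL-6+TGF-β columns, and Aldoc and Pfkfb4 are red in the Tnfr2-/- columns.

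The first comparison asked what TNF+TGF-β did to these genes in WT cells. Relative to Th0, 22 of the 40 genes fell and 2 rose (limma on log2(FPKM+1), adjusted p under 0.05). Over all tested genes, 31.7% passed, of which 13% fell and 18.7% rose, each as a share of the tested genes. The median log2 difference of the 40 was −0.68, against 0.07 for all tested genes. The fall ran through the pathway: 14 of the 18 enzymes fell and none rose, as did 2 of 4 transporters, Hif1a and Egln1. The genes that rose were Pgm2 and Mxi1. The level of a bulk library mixes cells, so fewer cells of a type and less RNA per cell cannot be told apart here or in any result below. Relative to Th0, all 8 B cell markers and 1 of 9 myeloid markers also fell, and 3 of 4 tested CD8 and NK markers were higher. Of 7 T cell markers 1 was higher and 2 lower, 2 of 2 tested dendritic markers were higher, and 2 of 28 cell cycle genes were lower. The part of these changes in the result was not tested. Under TPM scaling 19 genes fell and 5 rose, the added ones being Eno2, Bnip3l and P4ha2. The falls of Slc2a1, Eno3 and Ldha were lost under that scaling, and those of Eno3 and Ldha also with no filter on low values. Across 15 alternative settings, 18 of the falls and both rises passed every time, and the other falls were lost when single libraries were left out: Slc16a3 without replicate 2 of either group, Slc2a1 without any one of the TNF+TGF-β replicates or replicate 2 or 3 of Th0, Ldha without any one library other than TNF+TGF-β replicate 3, and Eno3 without any one of the 6.

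The second comparison asked the same of IL-6+TGF-β. Relative to Th0, 15 of the 40 genes fell and 4 rose, where 23.2% of all tested genes passed, 9.15% falling and 14.1% rising. The median log2 difference was −0.42, against 0.04 for all tested genes. Of the enzymes, 6 of 9 from hexokinase to triosephosphate isomerase were lower, and 3 of 9 from Gapdh to the lactate dehydrogenases; a difference between these shares was not tested. Pgm2, Egln3, Mxi1 and P4ha1 rose. No transporter passed the test, with log2 differences from −0.85 for Slc16a3 to −0.27 for Slc2a1. Beside this, 2 of 8 B cell markers and 3 of 9 myeloid markers fell and 2 of 4 tested CD8 and NK markers rose. Of 7 T cell markers 2 rose and 2 fell, 1 of 2 tested dendritic markers fell, and none of 28 cell cycle genes passed. The part of these cells in the result was not tested. The count of falls was 8 without Th0 replicate 3 and also 8 without IL-6+TGF-β replicate 3, and Hk2, Gpi1, Aldoa, Tpi1, Eno3, Pgm1, Bnip3 and Ankrd37 fell and Pgm2, Egln3 and Mxi1 rose in every one of 15 alternatives.

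The third comparison set the cytokine pairs against each other in WT cells. With TNF+TGF-β, 11 of the 40 genes were lower than with IL-6+TGF-β and 1 was higher, where 12.8% of all tested genes passed, 5.50% lower and 7.31% higher. The median log2 difference was −0.27, against 0.00 for all tested genes. The lower genes were Aldoa, Aldoc, Pgam1, Eno1, Pkm and Ldha among the enzymes, and Hif1a, Egln3, Bnip3, P4ha1 and Mxi1 of the hypoxia response. Eno3 was the gene that was higher. In this comparison 6 of 8 B cell markers and 1 of 4 tested CD8 and NK markers were lower. Of 2 tested dendritic markers 1 was higher, and none of 9 myeloid markers or 28 cell cycle genes passed. Cd4 was higher, averaging 58.2 FPKM under TNF+TGF-β against 14.5 FPKM under IL-6+TGF-β, and Cd8a averaged 173 FPKM under TNF+TGF-β and 165 FPKM under IL-6+TGF-β; their part was not tested. Aldoa, Pkm, Egln3, Bnip3 and Eno3 passed in every one of 15 alternatives. The count of lower genes was 7, 8 and 5 without IL-6+TGF-β replicate 1, 2 and 3, and 6, 6 and 7 without TNF+TGF-β replicate 1, 2 and 3, and Pfkm joined the higher genes, making 2, without IL-6+TGF-β replicate 2.

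The fourth comparison asked what the loss of Tnfr2 changed under TNF+TGF-β. In Tnfr2-/- libraries 10 of the 40 genes were lower than in WT and 5 were higher, where 17.5% of all tested genes were lower and 19.9% higher. Together 15 of 40 passed, 37.5%, beside 37.4% of all tested genes, a share near that background. The share of members moved with the setting: 21 of 40 passed under TPM scaling (16 lower and 5 higher, with 21.8% of all tested genes lower and 16.1% higher) and likewise 21 under median-ratio scaling (38.2% of all tested genes). Without Tnfr2-/- library 1, 23 of 40 passed, beside 40.3% of all tested genes. The share also fell: 10 of 40 passed without the library numbered 4, beside 29% of all tested genes. Leaving out WT replicate 1 or 3 gave 11 of 40 each, beside 27.2% and 27.5% of all tested genes. With only the 2 groups fitted, 13 of 40 passed, beside 33.8%. With the main settings the median log2 difference was −0.27, against 0.00 for all tested genes. Lower in Tnfr2-/- were the lactate exporters Slc16a1 and Slc16a3, Hk1, Pfkm, 5 of 9 enzymes of lower glycolysis, and Ero1l. Higher were Aldoa, Aldoc, Pfkfb4, Bnip3 and Bnip3l, and the calls of these 5 and of Eno3 and Ero1l held in every one of 15 alternatives. Beside this, all 8 B cell markers, 7 of 9 myeloid markers and 1 of 2 tested erythroid markers were higher in Tnfr2-/-. All 4 tested CD8 and NK markers, 2 of 2 tested dendritic markers, 2 of 7 T cell markers and 27 of 28 cell cycle genes were lower. The myeloid sum was 348 to 1656 FPKM in Tnfr2-/- against 115 to 192 FPKM in WT. The cell cycle sum was 1133 to 2179 FPKM in Tnfr2-/- against 3554 to 4594 FPKM in WT; the part of these differences in the result was not tested. The count of lower genes was 18 without Tnfr2-/- library 1, 5 without the library numbered 4, and 6 without WT replicate 1 or replicate 3, and Pgk1, Eno1, Pkm and Ldha were lost in each of the last 3 of these, and Slc16a3 without the library numbered 4.

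**Figure D2:**
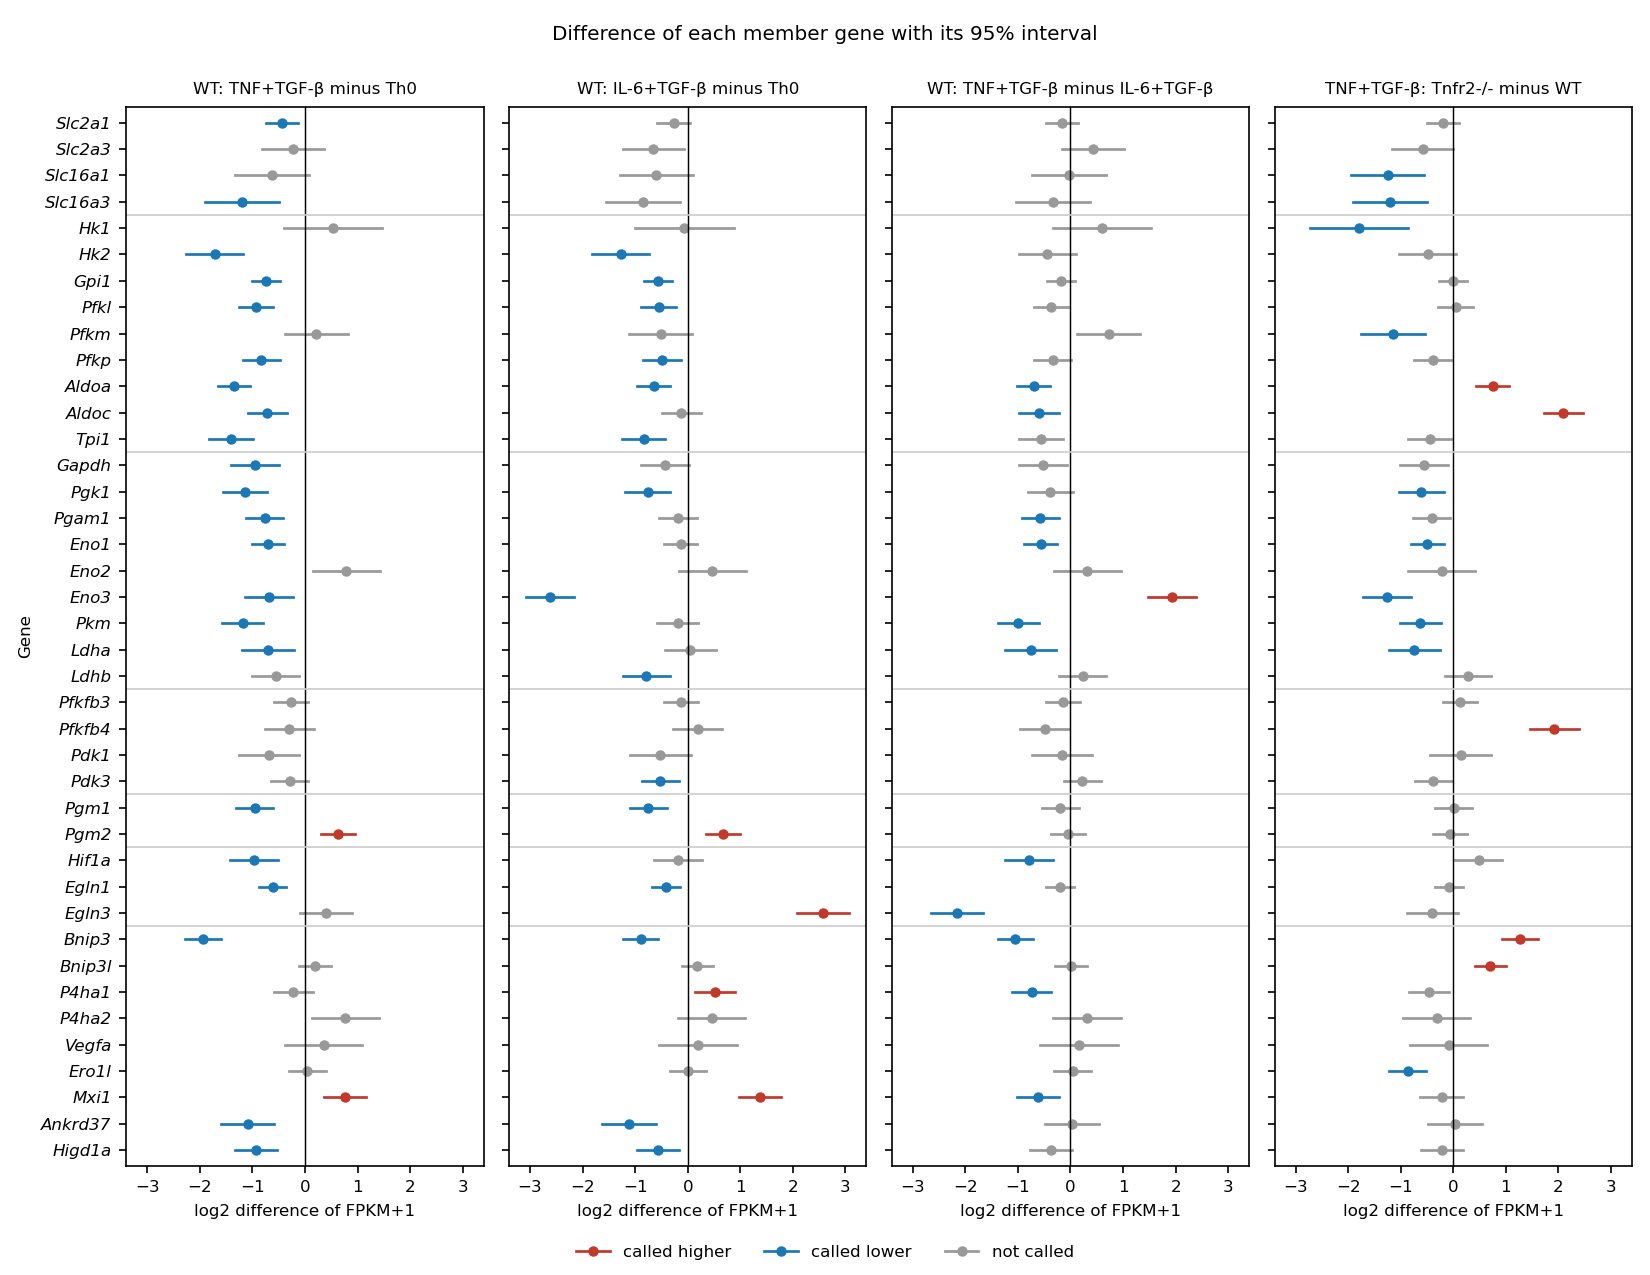
Log2 difference of FPKM+1 (points) with 95% interval (lines) for each of the 40 genes in the first 4 comparisons, the group named first in each panel title minus the second. Red marks genes called higher, blue genes called lower and grey genes not called; blue dominates the first panel (22 genes), and the last panel holds 10 blue and 5 red.

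Genotype and cytokine both differ between Tnfr2-/- with TNF+TGF-β and WT Th0, so that contrast only places the levels. In Tnfr2-/- 27 of the 40 genes were lower than in WT Th0 and 5 were higher, where 48.1% of all tested genes passed, 19.1% lower and 29.0% higher, and 15 of the 18 enzymes were among the lower. Beside this, 7 of 8 B cell markers, 8 of 9 myeloid markers and 2 of 2 tested erythroid markers were higher in Tnfr2-/- than in WT Th0. All 4 tested CD8 and NK markers, 3 of 7 T cell markers and 27 of 28 cell cycle genes were lower, and none of 2 tested dendritic markers passed. The part of these differences in the result was not tested. The comparison shares its Th0 libraries with the first and second comparisons and its Tnfr2-/- libraries with the fourth. The WT libraries with TNF+TGF-β also serve in several comparisons, as do those with IL-6+TGF-β, so these counts are not independent of each other. Counted by libraries that did not overlap between the groups, 27 members were lower and 4 higher in the first comparison (55.1% of all tested genes did not overlap in either direction), 19 and 5 in the second (39.2%), 19 and 4 in the third (32.1%), 14 and 5 in the fourth (50.8%), and 29 and 6 for Tnfr2-/- against WT Th0 (56.7%). The genes are taken up by role below, with the level of every library in FPKM.

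Among the transporters, Slc2a1 encodes GLUT1, the main glucose importer of activated T cells. It stood at 33.8, 31.1 and 26.1 FPKM in Tnfr2-/- with TNF+TGF-β, at 35.01, 33.9 and 34.8 FPKM in WT with TNF+TGF-β, at 33.2, 44.1 and 40.1 FPKM under IL-6+TGF-β and at 41.6, 52.1 and 48.1 FPKM in Th0. The TNF+TGF-β libraries of both genotypes lay below all Th0 libraries, and the fall in WT was −0.43 on the log2 scale (SE 0.14, adjusted p = 0.0339). Slc16a1 (MCT1) and Slc16a3 (MCT4) export lactate. Slc16a3 had 23.2, 12.8 and 9.87 FPKM in Tnfr2-/-, 34.8, 31.3 and 37.4 FPKM in WT with TNF+TGF-β, 30.1, 62.3 and 44.7 FPKM with IL-6+TGF-β, and 69.2, 116 and 63.8 FPKM in Th0. Every Tnfr2-/- library was below every WT library of this gene. The log2 difference was −1.20 for Tnfr2-/- against WT with TNF+TGF-β (adjusted p = 0.0121) and −1.19 for WT with TNF+TGF-β against Th0 (adjusted p = 0.0149). Slc16a1 was lower in Tnfr2-/-, with 19.9, 8.80 and 6.85 FPKM against 27.4, 25.4 and 27.9 FPKM in WT with TNF+TGF-β (log2 difference −1.25, adjusted p = 0.00994). It did not pass between WT with TNF+TGF-β and Th0 (log2 difference −0.62, 95% interval −1.32 to 0.08). Slc2a3, the high-affinity importer GLUT3, ranged from 4 to 15.5 FPKM over the 12 libraries and passed in none of the first 4 comparisons.

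Hexokinase traps glucose in the cell, and its genes passed in different comparisons. Hk2, the inducible form, had 4.28, 3.95 and 2.56 FPKM in Tnfr2-/-, 4.66, 3.92 and 8.18 FPKM in WT with TNF+TGF-β, 7.55, 9.48 and 6.17 FPKM with IL-6+TGF-β, and 18.02, 23 and 18.8 FPKM in Th0. All cytokine-treated libraries were below all Th0 libraries. Hk2 fell by 1.71 on the log2 scale with TNF+TGF-β (adjusted p = 0.000305) and by 1.27 with IL-6+TGF-β (adjusted p = 0.00283) relative to Th0, while Tnfr2-/- and WT with TNF+TGF-β overlapped. Hk1, the constitutive form, had 26.9, 15.1 and 11.2 FPKM in Tnfr2-/-, 57.6, 70.3 and 53.3 FPKM in WT with TNF+TGF-β, 17.5, 65.7 and 52.1 FPKM with IL-6+TGF-β, and 34.03, 58.1 and 35.2 FPKM in Th0. Only the Tnfr2-/- difference passed among the first 4 comparisons, at −1.79 (adjusted p = 0.00695). Replicate 1 of IL-6+TGF-β was the lowest of its group for this gene and the lowest of the 12 libraries in Cd4, at 4.07 FPKM. Its summed level of the 7 T cell markers was the highest of its group, at 3179 FPKM against 3106 and 2807 FPKM. The part of cell types in its Hk1 value was not tested.

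At the end of upper glycolysis, Tpi1, triosephosphate isomerase, had 390, 320 and 222 FPKM in Tnfr2-/-, 441, 356 and 452 FPKM in WT with TNF+TGF-β, 726, 574 and 551 FPKM with IL-6+TGF-β, and 1113, 1061 and 1123 FPKM in Th0. Among the WT groups no library overlapped with another group. Tpi1 fell by 1.40 with TNF+TGF-β (adjusted p = 0.000186) and by 0.84 with IL-6+TGF-β (adjusted p = 0.00728). The aldolases split a hexose into trioses, and both were higher in Tnfr2-/- than in WT with TNF+TGF-β. Aldoc, the minor form here, had 11.6, 14.3 and 12.2 FPKM in Tnfr2-/-, 2.75, 2.37 and 1.60 FPKM in WT with TNF+TGF-β, 3.84, 3.33 and 4.42 FPKM with IL-6+TGF-β, and 4.43, 4.13 and 4.24 FPKM in Th0. The log2 difference between Tnfr2-/- and WT with TNF+TGF-β was 2.09 (95% interval 1.72 to 2.47, adjusted p = 7.84e-06), and WT fell by 0.72 relative to Th0 (adjusted p = 0.00803). Aldoa, the major form and named here after its values were seen, had 904, 1058 and 840 FPKM in Tnfr2-/- against 567, 487 and 608 FPKM in WT with TNF+TGF-β, a log2 difference of 0.75 (adjusted p = 0.00166). It stood at 1357, 1437 and 1428 FPKM in Th0, so WT with TNF+TGF-β was lower by −1.35 (adjusted p = 2.55e-05) and the Tnfr2-/- level lay between them. Gpi1, the isomerase of glucose 6-phosphate, fell with both cytokine pairs (log2 difference −0.74 with TNF+TGF-β and −0.56 with IL-6+TGF-β). Of the phosphofructokinases, which commit the sugar to glycolysis, Pfkl fell by 0.93 and Pfkp by 0.83 with TNF+TGF-β. Pfkm, the scarce muscle form at 1.70 to 7.23 FPKM, was lower in Tnfr2-/- than in WT with TNF+TGF-β by −1.15 (adjusted p = 0.00692).

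Lower glycolysis holds the most abundant of the 40 genes. Gapdh, which makes NADH, had 1701, 1653 and 1115 FPKM in Tnfr2-/-, 2236, 1847 and 2419 FPKM in WT with TNF+TGF-β, 4029, 2761 and 2639 FPKM with IL-6+TGF-β, and 3733, 4314 and 4450 FPKM in Th0. TNF+TGF-β libraries lay below all other WT libraries, and Gapdh fell by 0.95 relative to Th0 (adjusted p = 0.00491). Pgk1, which makes the first ATP of the pathway, had 262, 234 and 149 FPKM in Tnfr2-/-, 341, 269.7 and 353 FPKM in WT with TNF+TGF-β, 486, 388 and 379.9 FPKM with IL-6+TGF-β, and 693, 691 and 733 FPKM in Th0. It fell by 1.14 with TNF+TGF-β (adjusted p = 0.000974) and by 0.76 with IL-6+TGF-β (adjusted p = 0.0141), the second a call that was lost without Th0 replicate 3 or IL-6+TGF-β replicate 2 or 3. Pgk1 was lower by −0.61 in Tnfr2-/- than in WT with TNF+TGF-β (adjusted p = 0.029). That call was lost in 6 of 15 alternatives, among them leaving out WT replicate 1 or 3 or the library numbered 4.

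Pkm encodes pyruvate kinase, the last step to pyruvate. It had 577, 425 and 337 FPKM in Tnfr2-/-, 703, 592 and 729 FPKM in WT with TNF+TGF-β, 1198, 1442 and 1385 FPKM with IL-6+TGF-β, and 1452, 1617 and 1521 FPKM in Th0. The TNF+TGF-β libraries were all lower than the IL-6+TGF-β libraries, by −0.99 on the log2 scale (adjusted p = 0.00236), while IL-6+TGF-β against Th0 did not pass (log2 difference −0.19, 95% interval −0.58 to 0.19). Ldha, which makes lactate and is named here after its values were seen, did not pass between IL-6+TGF-β and Th0. It had 1519, 1371 and 817 FPKM in Tnfr2-/-, 2062, 1738 and 2232 FPKM in WT with TNF+TGF-β, 4166, 3037 and 3031 FPKM with IL-6+TGF-β, and 3111, 3552 and 3120 FPKM in Th0. The log2 difference was −0.70 for WT with TNF+TGF-β against Th0 (adjusted p = 0.0314), −0.74 for Tnfr2-/- against WT (adjusted p = 0.0212), and 0.05 for IL-6+TGF-β against Th0 (95% interval −0.44 to 0.54).

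Eno3, the enolase known from muscle, had its lowest group mean with IL-6+TGF-β. It stood at 30.0, 28.4 and 18.7 FPKM in Tnfr2-/-, 59.8, 65.9 and 59.5 FPKM in WT with TNF+TGF-β, 21.8, 14.4 and 11.7 FPKM with IL-6+TGF-β, and 102, 100.5 and 96.96 FPKM in Th0. None of the 3 WT groups overlapped, while Tnfr2-/- overlapped with IL-6+TGF-β. Against Th0, Eno3 under IL-6+TGF-β gave a log2 difference of −2.62 (95% interval −3.08 to −2.16, adjusted p = 3.23e-06). With TNF+TGF-β it was higher than with IL-6+TGF-β by 1.93 (adjusted p = 6.27e-05) and lower than in Th0 by −0.69 (adjusted p = 0.0274). Tnfr2-/- libraries were lower than WT libraries with TNF+TGF-β by −1.26 (adjusted p = 0.000753). Eno1, the common enolase, lay between 779 and 2208 FPKM, and Eno2, the neuronal form, stayed between 1.71 and 6.14 FPKM and passed in none of the 5 comparisons. Pgam1, phosphoglycerate mutase, fell with TNF+TGF-β relative to Th0 (log2 difference −0.76) and relative to IL-6+TGF-β (−0.58), where the call was lost without TNF+TGF-β replicate 1 or 2 or IL-6+TGF-β replicate 1 or 3. This second call was also lost with no filter on low values and when only the 2 groups were fitted. Ldhb, the lactate dehydrogenase subunit that favours pyruvate formation, fell with IL-6+TGF-β relative to Th0 (−0.79, adjusted p = 0.0146), a call that was lost without Th0 replicate 1 or 3 or IL-6+TGF-β replicate 2 or 3, and when only the 2 groups were fitted.

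**Figure D3:**
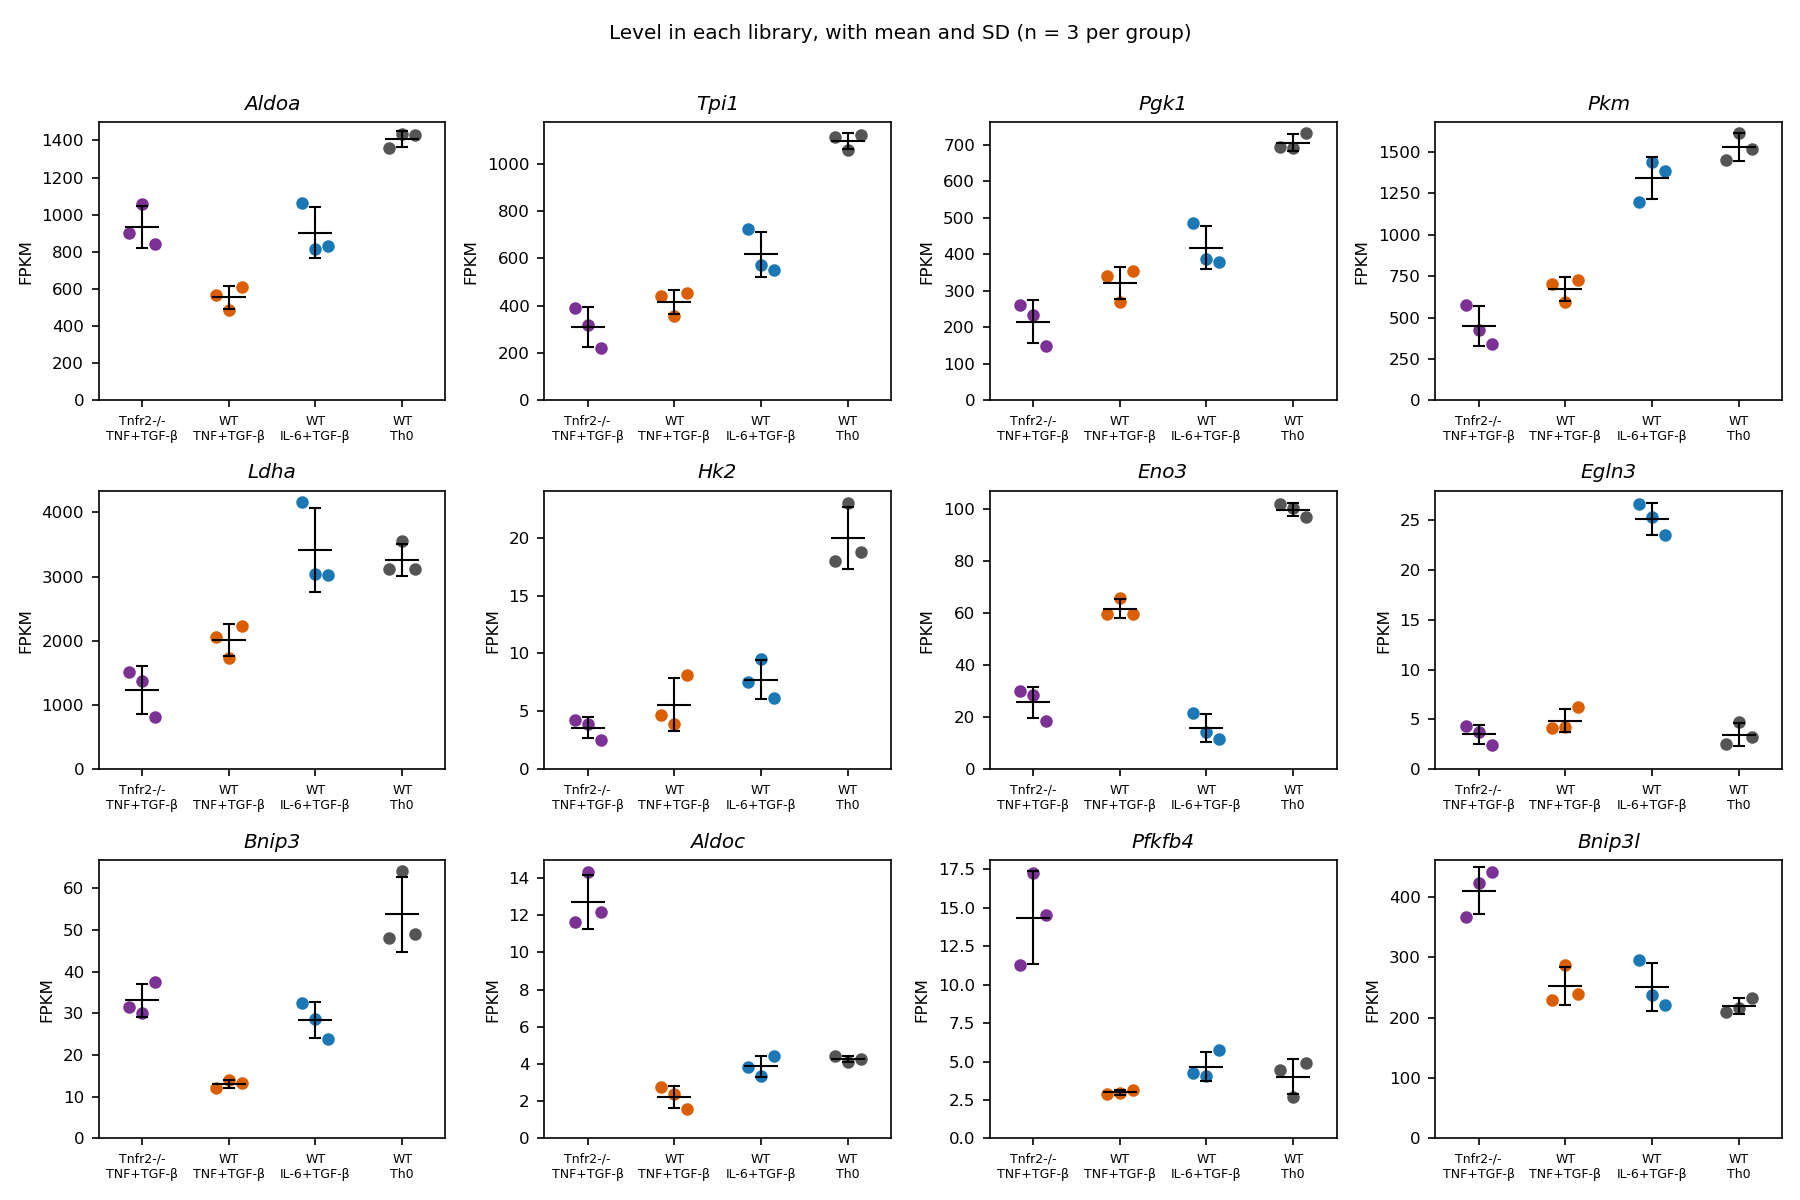
FPKM of 12 of the genes in each library (points), with the group mean (horizontal line) and SD (whiskers, n = 3); groups from left to right are Tnfr2-/- with TNF+TGF-β, WT with TNF+TGF-β, WT with IL-6+TGF-β and WT Th0, and each axis starts at 0. The group means of Tpi1, Pgk1 and Pkm step up from left to right, the mean of Eno3 is lowest and that of Egln3 highest with IL-6+TGF-β, that of Bnip3 is lowest in WT with TNF+TGF-β, and those of Aldoc, Pfkfb4 and Bnip3l are highest in Tnfr2-/-.

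Of the kinases that steer the pathway, Pfkfb3 and Pfkfb4 make and break fructose 2,6-bisphosphate, the activator of phosphofructokinase. Pfkfb4 had 11.3, 17.3 and 14.5 FPKM in Tnfr2-/-, 2.86, 2.97 and 3.15 FPKM in WT with TNF+TGF-β, 4.22, 4.03 and 5.73 FPKM with IL-6+TGF-β, and 4.44, 2.70 and 4.90 FPKM in Th0. The lowest Tnfr2-/- library was above every WT library, and the log2 difference from WT with TNF+TGF-β was 1.93 (95% interval 1.46 to 2.39, adjusted p = 4.46e-05). Pfkfb3 stayed between 6.21 and 9.51 FPKM in all 12 libraries and passed in none of the 5 comparisons. The Pdk genes encode kinases that shut pyruvate dehydrogenase. Pdk3 had 77.1, 66.0 and 52.1 FPKM in Tnfr2-/-, 91.7, 79.8 and 80.4 FPKM in WT with TNF+TGF-β, 89.2, 62.7 and 65.2 FPKM with IL-6+TGF-β, and 109, 101 and 98.8 FPKM in Th0. It fell by 0.52 with IL-6+TGF-β relative to Th0 (adjusted p = 0.0385), a call that was lost in 9 of 15 alternatives, among them leaving out any Th0 library or IL-6+TGF-β replicate 2 or 3. Pdk1 ranged from 11.6 to 34.01 FPKM and passed in none of the 5 comparisons.

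Both phosphoglucomutases changed, in opposite directions. Pgm1, which links glucose 6-phosphate to glycogen and sugar nucleotides, had 29.1, 30.2 and 21.0 FPKM in Tnfr2-/-, 24.7, 28.8 and 25.5 FPKM in WT with TNF+TGF-β, 29.6, 33.8 and 27.8 FPKM with IL-6+TGF-β, and 46.9, 61.8 and 48.1 FPKM in Th0. Pgm2, known in humans as an enzyme that also acts on pentose phosphates, had 14.6, 11.4 and 12.6 FPKM in Tnfr2-/-, 13.2, 13.9 and 13.4 FPKM in WT with TNF+TGF-β, 11.9, 15.2 and 15.02 FPKM with IL-6+TGF-β, and 7.28, 9.35 and 8.56 FPKM in Th0. Every cytokine-treated library was below the Th0 libraries in Pgm1 and above them in Pgm2. With TNF+TGF-β relative to Th0, Pgm1 fell by 0.95 (adjusted p = 0.00092) and Pgm2 rose by 0.63 (adjusted p = 0.00743). With IL-6+TGF-β relative to Th0, the log2 differences were −0.75 for Pgm1 (adjusted p = 0.00507) and 0.68 for Pgm2 (adjusted p = 0.00604). Neither gene passed between Tnfr2-/- and WT (log2 difference 0.01 for Pgm1, 95% interval −0.34 to 0.36, and −0.07 for Pgm2, 95% interval −0.39 to 0.26).

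Hif1a encodes HIF-1α itself, whose protein is controlled mainly by its stability, so its RNA is only one layer. It had 69.2, 45.4 and 60.4 FPKM in Tnfr2-/-, 41.1, 51.4 and 32.3 FPKM in WT with TNF+TGF-β, 57.5, 82.4 and 76.6 FPKM with IL-6+TGF-β, and 73.3, 95.5 and 75.5 FPKM in Th0. The WT libraries with TNF+TGF-β were below all other WT libraries, with a log2 difference from Th0 of −0.97 (adjusted p = 0.00425). From IL-6+TGF-β it was −0.79 (adjusted p = 0.0256), a call that was lost in 8 of 15 alternatives. It was lost when TNF+TGF-β replicate 1 or 3 or IL-6+TGF-β replicate 2 or 3 was left out. TPM scaling, no filter on low values, only the 2 groups in the fit, and the replicate block also ended it. Tnfr2-/- against WT gave 0.48 (adjusted p = 0.0884, 95% interval 0.03 to 0.93) and did not pass. Egln1 (PHD2), the main prolyl hydroxylase of HIF-1α, had 34.2, 27.4 and 26.3 FPKM in Tnfr2-/-, 30.9, 31.9 and 29.9 FPKM in WT with TNF+TGF-β, 36.3, 38.1 and 33.1 FPKM with IL-6+TGF-β, and 49.0, 50.1 and 44.8 FPKM in Th0. It fell by 0.62 with TNF+TGF-β relative to Th0 (adjusted p = 0.00254).

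Egln3 (PHD3) is a prolyl hydroxylase that is itself a HIF target. It had 4.32, 3.75 and 2.42 FPKM in Tnfr2-/-, 4.16, 4.28 and 6.23 FPKM in WT with TNF+TGF-β, 26.6, 25.3 and 23.5 FPKM with IL-6+TGF-β, and 2.51, 4.75 and 3.2 FPKM in Th0. The IL-6+TGF-β libraries were above all others, and the other 3 groups overlapped. The log2 difference was 2.57 for IL-6+TGF-β against Th0 (95% interval 2.08 to 3.06, adjusted p = 6.25e-06) and −2.16 for TNF+TGF-β versus cells with IL-6+TGF-β (adjusted p = 4.5e-05).

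The other hypoxia-response genes did not share one direction. Bnip3, which marks mitochondria for removal, had 31.6, 30.2 and 37.5 FPKM in Tnfr2-/-, 12.2, 14.0 and 13.2 FPKM in WT with TNF+TGF-β, 32.6, 28.7 and 23.8 FPKM with IL-6+TGF-β, and 48.1, 64.2 and 49.0 FPKM in Th0. The WT libraries with TNF+TGF-β were below all others and the Th0 libraries above all others. Bnip3 fell by 1.94 with TNF+TGF-β relative to Th0 (95% interval −2.28 to −1.61, adjusted p = 2.81e-06) and by 0.90 with IL-6+TGF-β (adjusted p = 0.00121), and was higher in Tnfr2-/- than in WT with TNF+TGF-β by 1.27 (adjusted p = 8.47e-05). Its relative Bnip3l (Nix), with the same known role and named after its values were seen, had 368, 423 and 442 FPKM in Tnfr2-/- against 229, 288 and 239.7 FPKM in WT with TNF+TGF-β, a log2 difference of 0.71 (adjusted p = 0.00203). In the 3 comparisons among WT groups Bnip3l did not pass, with log2 differences of 0.01 to 0.19. Bnip3l is also known for its part in the clearing of mitochondria from maturing red cells, and Hbb-bs stood at 17.6, 2.30 and 42.1 FPKM in Tnfr2-/- against 0.54, 0 and 3.32 FPKM in WT with TNF+TGF-β; the part of such cells was not tested.

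Mxi1, a partner of Max that opposes Myc, had 7.21, 7.30 and 5.70 FPKM in Tnfr2-/-, 7.89, 9.62 and 6.68 FPKM in WT with TNF+TGF-β, 10.7, 14.3 and 13.7 FPKM with IL-6+TGF-β, and 3.65, 5.27 and 4.17 FPKM in Th0. It rose in WT by 0.76 with TNF+TGF-β (adjusted p = 0.00882) and by 1.38 with IL-6+TGF-β (adjusted p = 0.000174), both relative to Th0. Ankrd37, an ankyrin-repeat gene known as a HIF target, had 8.53, 10.5 and 10.3 FPKM in Tnfr2-/-, 10.04, 6.32 and 13.4 FPKM in WT with TNF+TGF-β, 11.2, 9.49 and 7.56 FPKM with IL-6+TGF-β, and 24.2, 17.95 and 22.6 FPKM in Th0. Th0 was above all other libraries, and Ankrd37 fell by 1.09 with TNF+TGF-β (adjusted p = 0.00415) and by 1.12 with IL-6+TGF-β (adjusted p = 0.00432). Higd1a, a mitochondrial inner-membrane protein of the hypoxia response, had 36.7, 38.0 and 36.3 FPKM in Tnfr2-/-, 44.5, 35.7 and 49.8 FPKM in WT with TNF+TGF-β, 77.2, 47.4 and 47.3 FPKM with IL-6+TGF-β, and 87.8, 83.1 and 77.6 FPKM in Th0. It fell by 0.93 with TNF+TGF-β relative to Th0 (adjusted p = 0.00242).

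P4ha1, a collagen prolyl hydroxylase, rose by 0.52 with IL-6+TGF-β relative to Th0 (adjusted p = 0.048), a call that ended when any 1 library of these groups was left out. It also ended under upper-quartile scaling, a smaller pseudocount, no filter on low values and no variance trend. Ero1l, an oxidase of the endoplasmic reticulum and named after its values were seen, had 14.9, 10.2 and 9.89 FPKM in Tnfr2-/- against 22.6, 20.6 and 22.0 FPKM in WT with TNF+TGF-β, a log2 difference of −0.87 (adjusted p = 0.00139). Between the WT groups Ero1l differed by 0.00 to 0.05 on the log2 scale. P4ha2, the paralogue of P4ha1, and Vegfa, the vascular growth factor, were low, from 0.56 to 3.05 FPKM and from 1.77 to 6.83 FPKM, and passed in none of the 5 comparisons. In 12 genes of the HIF system and its targets, 1 rose and 5 fell with TNF+TGF-β and 3 rose and 4 fell with IL-6+TGF-β, both relative to Th0, and 2 were higher and 1 lower in Tnfr2-/- than in WT. The enzyme genes gave 0 higher and 14 lower, 0 higher and 9 lower, and 2 higher and 7 lower of 18 in the same 3 comparisons. Over all tested genes 31.7%, 23.2% and 37.4% passed in these comparisons in turn, so the 3 of 12 HIF genes in Tnfr2-/- lay under the background.

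Paralogues that catalyse the same step differed in share between the groups. These shares are descriptions, on the FPKM scale, with no test. Hk2 made up 13.7% to 20.7% of the Hk1 and Hk2 level in Tnfr2-/-, 5.29% to 13.3% in WT with TNF+TGF-β, 10.6% to 30.1% with IL-6+TGF-β, and 28.4% to 34.8% in Th0. Pfkfb4 made up 58.6% to 70.5% of the Pfkfb3 and Pfkfb4 level in Tnfr2-/-, against 26.4% to 32.8% in WT with TNF+TGF-β, with 34.4% to 41.7% for IL-6+TGF-β and 24.0% to 39.3% for Th0. Pgm2 held 27.4% to 37.5% of the Pgm1 and Pgm2 level in the 9 cytokine-treated libraries, against 13.1% to 15.1% in Th0. Eno3 held 0.683% to 1.06% of the Eno1 and Eno3 level with IL-6+TGF-β, and at least 2.34% in every other library. The aldolase pair stayed dominated by Aldoa, with Aldoc at 1.27% to 1.43% in Tnfr2-/- and at most 0.527% in WT libraries.

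**Figure D4:**
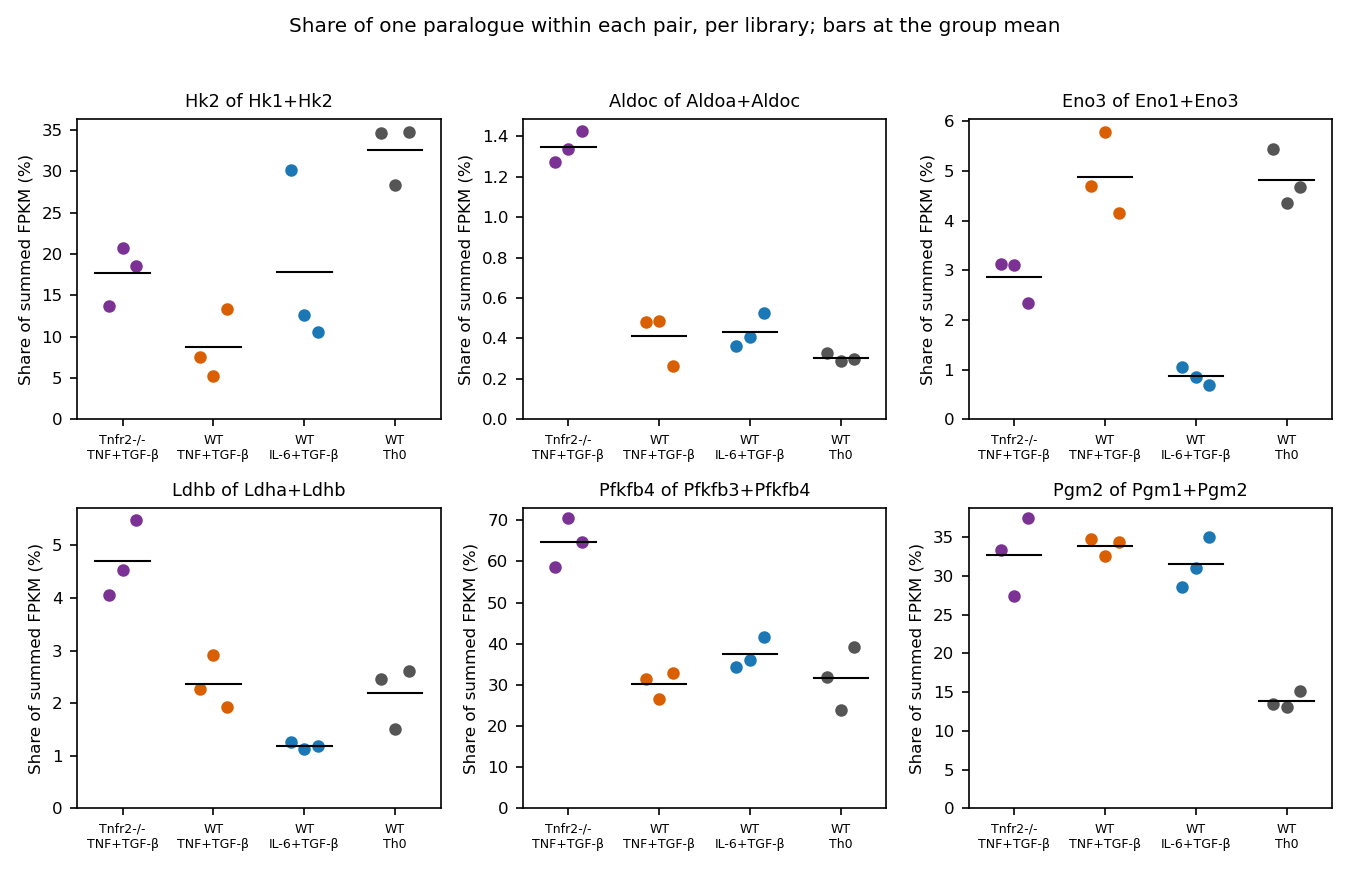
Share of one paralogue in the summed FPKM of its pair (per cent) in each library (points), with the group mean (horizontal lines); groups from left to right are Tnfr2-/- with TNF+TGF-β, WT with TNF+TGF-β, WT with IL-6+TGF-β and WT Th0. Pfkfb4 and Aldoc shares are highest in Tnfr2-/-, the Eno3 share is lowest with IL-6+TGF-β, and the Pgm2 share is lowest in Th0.

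The 40 genes can be set beside other genes of the same pathways. Of 19 further glycolysis and transport genes, 9 passed the filter on low values. With TNF+TGF-β relative to Th0, 3 of them rose and none fell, while 22 of the members fell. Slc2a6, the transporter GLUT6, had 50.3, 42.4 and 28.4 FPKM in Tnfr2-/-, 262, 289.6 and 196 FPKM in WT with TNF+TGF-β, 27.8, 24.8 and 25.4 FPKM with IL-6+TGF-β, and 13.7, 18.2 and 13.6 FPKM in Th0. Its log2 difference was 3.94 for WT with TNF+TGF-β against Th0 (adjusted p = 1.16e-07), 3.19 against IL-6+TGF-β (adjusted p = 1.16e-06), and −2.61 for Tnfr2-/- against WT (adjusted p = 6.34e-06). No library with TNF+TGF-β in WT overlapped with any other. With IL-6+TGF-β relative to Th0, 2 of the 9 rose and 1 fell, and in Tnfr2-/- relative to WT 1 was higher and 1 lower. Over all tested genes 31.7% passed with TNF+TGF-β relative to Th0, 23.2% with IL-6+TGF-β and 37.4% in Tnfr2-/- relative to WT.

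Of 20 further hypoxia targets, 19 were tested. With TNF+TGF-β relative to Th0, 8 rose and 6 fell, led by Ak4, a mitochondrial adenylate kinase (log2 difference −2.22), and Bhlhe40, a repressor active in T cells (2.18). With IL-6+TGF-β relative to Th0, 2 rose and 5 fell, led by Plod2, a collagen lysyl hydroxylase (3.08), and Adm, adrenomedullin (−1.98). In Tnfr2-/- relative to WT, 3 were higher and 5 lower. Of 4 tested genes among 7 other HIF components, Arnt, the partner of HIF-1α, rose with TNF+TGF-β relative to Th0 (1.04, adjusted p = 0.0338), and Egln2 was higher in Tnfr2-/- than in WT (0.53, adjusted p = 0.0259). In the pentose phosphate pathway 1 of 8 genes rose with TNF+TGF-β relative to Th0, and in pyruvate entry and the citric acid cycle 2 of 14 rose and 2 fell. In Tnfr2-/- relative to WT, 3 of 8 and 4 of 14 were lower and none higher. Of 11 regulators of T cell metabolism, 4 were lower and 2 higher in Tnfr2-/- than in WT, led by Slc7a5, the large neutral amino acid carrier (−2.19), and Tfrc, the transferrin receptor (−1.52). The shares over all tested genes were 31.7% for TNF+TGF-β against Th0, 23.2% for IL-6+TGF-β against Th0 and 37.4% for Tnfr2-/- against WT. Taken in either direction, the pentose phosphate and citric acid cycle counts lay near or under these shares.

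**Figure D5:**
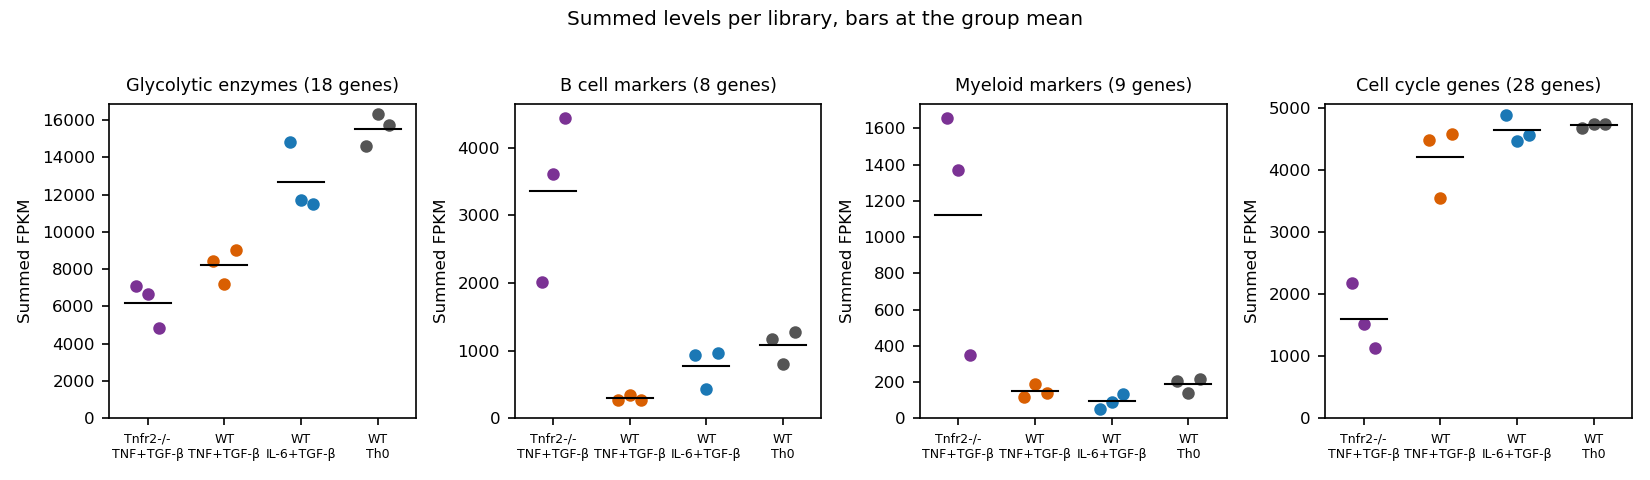
Summed FPKM of the 18 glycolytic enzymes, 8 B cell markers, 9 myeloid markers and 28 cell cycle genes in each library (points), with the group mean (horizontal lines); groups from left to right are Tnfr2-/- with TNF+TGF-β, WT with TNF+TGF-β, WT with IL-6+TGF-β and WT Th0. The enzyme sum is lowest in Tnfr2-/- at 4820 to 7079 FPKM, where the B cell and myeloid sums are highest and the cell cycle sum is lowest.

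Some values rest on reads that other genes could share. The libraries carry no strand, and, among others, exons of Pfkm, Pfkp, Pgm1, Mxi1 and Ankrd37 overlap an expressed gene on the other strand, such as Itgb3bp with 398 of the 2921 exon bases of Pgm1 and Gm10197 with 194 of 6823 of Mxi1. Near copies of enzyme genes were also listed with values, with Pgam1-ps2 at 15.2 to 72.8 FPKM, Pgk1-rs7 at 4.96 to 25.0 FPKM and Eno1b at 1.69 to 13.4 FPKM. The levels of Pgam1, Pgk1 and Eno1 are therefore less certain, and how many reads they share with these copies was not measured.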

How the data were processed

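RNA of 12 libraries from cultured mouse T cells was measured by sequencing, per the labels' protocols from SMARTer ultra-low-input cDNA and Nextera XT libraries, which keep no strand. Per the submitters' processing notes, Trimmomatic, STAR 2.5.4, RSEM 1.3.1 and mm10 were used. The header names RSEM gene results but not the quantity; the values deposited by the authors were read as FPKM because library sums differed (689045 to 828161) and value times transcript length summed to 900467 to 1010095 per library. No scaling between libraries is stated. Depth was estimated from the steps between low values, of which 78.4% to 89.2% lay within 0.2 of a whole multiple, and covers counting error only.

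Differences were tested with limma 3.58.1 (R 4.3.3) on log2(FPKM + 1), which understates changes of low genes, with 1 mean per group, all 12 libraries and a variance trend. Tests were two-sided, with Benjamini-Hochberg adjustment over 13082 genes and calls at 0.05. The code was tested on simulated data. Genes named with values per library were, per role, up to 4 called genes with the largest differences, plus Hif1a and Slc2a1; other lists gave up to 2 examples; further members given a value, and Hbb-bs, were chosen after their values were seen. The members and lists were chosen with earlier results of these data known. Scaling, pseudocount, filter, groups in the fit, variance trend, replicate block and left-out libraries were varied. One Tnfr2-/- column was numbered 4, while the labels give 1 to 3; it was used by group only. Gene positions and overlaps came from GENCODE M21 (GRCm38); 99.1% of gene identifiers matched the reference's table of gene names.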

Additional observations from a re-analysis of the deposited data

How the results depend on the processing

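Of 66 called log2 differences of the genes named by rule, none changed sign under the alternatives run (990 values), and 94 of these values ended a call; differences that were not called were not followed. Counts of members moved as follows. With TNF+TGF-β against Th0 in WT, 5 rose under TPM scaling and 4 when only the 2 groups were fitted, against 2. With TNF+TGF-β versus cells with IL-6+TGF-β, 5 were lower with no filter on low values and 6 when only the 2 groups were fitted, against 11. In Tnfr2-/- against WT, 16 were lower under TPM scaling and 16 under median-ratio scaling, against 10. With single libraries left out, the count of lower genes ran from 19 to 20 for TNF+TGF-β against Th0, from 8 to 15 for IL-6+TGF-β against Th0, from 5 to 8 for TNF+TGF-β versus cells with IL-6+TGF-β (higher genes 1 to 2), and from 5 to 18 for Tnfr2-/- against WT. The cause was not tested. TPM scaling moved the median log2 difference of all genes to 0.22 for TNF+TGF-β against Th0 (0.07 before) and to −0.11 for Tnfr2-/- against WT (0.00 before). Same-numbered libraries of the WT groups correlated in their deviations at −0.0288 to 0.344 (above 0 in 8 of 9 pairs, above 0.1 in 5), and those with Tnfr2-/- at −0.284 to 0.0816 (above 0.1 in 0 of 6). No pair of groups had every correlation above 0.1, and not every library correlated best with its own number, so the numbers were not taken as pairs. With a replicate block, 2 members were lower in Tnfr2-/- than in WT, against 10; Slc16a1, Slc16a3, Hk1, Pfkm, Pgk1, Eno1, Pkm and Ldha no longer passed. The library numbered 4 is alone in its block and so drops out of that fit's difference. The other counts stayed within 1.5 times. At this depth, differences of genes near 1 FPKM such as P4ha2 are the least certain.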
